A study of Mus musculus with 16 samples.

Results

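A set of 10 genes of epithelial defence against microbes was followed in the mouse small intestine. Duox2 and Nox1 are NADPH oxidases, and Duoxa2 is the maturation factor of Duox2. Nos2 makes nitric oxide, Gpx2 removes peroxides, Saa1, Saa2 and Saa3 encode serum amyloid A proteins, and Lypd8 and Lcn2 act on bacteria outside the cell. The genes were chosen by name, with earlier results of these data known. They are 10 of the 24421 genes counted in each library. Libraries came from wild type C57BL6/J mice at postnatal day 6 (P6), when pups suckle, and at postnatal day 36 (P36), after weaning. At each age 4 mice, of which 2 were female and 2 male, gave a segment of jejunum and a segment of ileum, so that 16 libraries formed 4 groups of 4. The epithelium was loosened with EDTA and shaken off, and its bulk mRNA was sequenced. Replicates 1 to 4 of a group are different mice, and the same replicate number at 1 age is the same mouse in both regions. By the first part of their names in the labels the P6 mice fall into 2 sets, replicates 1 and 3 and replicates 2 and 4. The labels do not say what a set is, and the tests treat the 4 mice as independent.

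Dual oxidase 2 (Duox2) sits in the apical membrane of gut epithelial cells and releases hydrogen peroxide into the lumen, and its maturation factor Duoxa2 is needed for it to leave the endoplasmic reticulum. In the gut Duox2 and Duoxa2, the inducible nitric oxide synthase Nos2, serum amyloid A and lipocalin 2 (Lcn2) are known to rise on contact with bacteria or with cytokines that bacteria elicit. Lcn2 binds siderophores, the iron carriers of bacteria, whereas Lypd8 is anchored to the apical membrane and binds flagellated bacteria. Serum amyloid A proteins circulate in the acute phase response and bind retinol, and in ileum they are known to respond to bacteria that attach to the epithelium.

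Library totals ranged from 12159237 to 25947276 counts. The epithelial label held: the summed level of 7 epithelial markers, among them Epcam and Vil1, was 3871 to 6543 CPM (counts scaled to the library total) at P6 and 12576 to 18970 CPM at P36. The lowest P6 value was that of replicate 4 of P6 ileum, against 6045 to 6543 CPM in the rest of its group. Its summed level of 6 goblet cell genes was also the lowest of the group, at 1728 CPM against 3353 to 3942 CPM. Replicate 2 of P6 ileum stood apart, with 225 CPM over 6 smooth muscle genes against at most 3.53 CPM in the other P6 libraries, and 245 CPM over 6 fibroblast genes against at most 42.2 CPM. Values that rest on it are given with and without it below. In bulk samples, fewer cells of a type and less RNA per cell cannot be told apart.

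The sequence before the start is shown for the 3 serum amyloid genes, whose levels differ widely, and for Lcn2 and Duoxa2, which hold a motif named below. RefSeq (GRCm38.p6, the build of the files) gave the 250 bases before the start of 9 of the 10 genes, all but Nos2. Saa1 and Saa2 lie on chromosome 7 on opposite strands, and their upstream sequences were identical in 238 of 251 aligned columns (94.8%), with 11 mismatches and 2 gap columns. Saa3 lies on the same chromosome. Its upstream sequence was identical to that of Saa1 in 154 of 295 aligned columns (52.2%), with 51 mismatches and 90 gap columns. Capitals mark the C/EBP motif TTGCNNAA on either strand in the first 4 sequences and the TATA box TATAAA in the last.
Saa1, chr7:46742981-46743230, minus strand: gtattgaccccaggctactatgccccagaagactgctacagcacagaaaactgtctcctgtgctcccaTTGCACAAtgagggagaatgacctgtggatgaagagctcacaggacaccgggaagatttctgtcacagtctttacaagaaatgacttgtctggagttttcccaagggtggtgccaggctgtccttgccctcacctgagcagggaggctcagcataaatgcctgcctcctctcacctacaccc
Saa2, chr7:46751583-46751832, plus strand: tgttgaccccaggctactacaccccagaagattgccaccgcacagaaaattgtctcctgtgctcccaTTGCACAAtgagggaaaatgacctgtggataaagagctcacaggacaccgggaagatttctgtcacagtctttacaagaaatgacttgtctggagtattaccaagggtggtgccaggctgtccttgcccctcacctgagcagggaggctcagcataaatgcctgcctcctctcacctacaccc
Saa3, chr7:46715677-46715926, minus strand: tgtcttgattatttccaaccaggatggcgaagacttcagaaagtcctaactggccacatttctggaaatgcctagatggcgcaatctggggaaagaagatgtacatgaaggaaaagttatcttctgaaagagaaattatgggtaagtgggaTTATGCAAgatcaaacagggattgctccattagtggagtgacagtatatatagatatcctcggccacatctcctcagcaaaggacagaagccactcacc
Lcn2, chr2:32387740-32387989, minus strand: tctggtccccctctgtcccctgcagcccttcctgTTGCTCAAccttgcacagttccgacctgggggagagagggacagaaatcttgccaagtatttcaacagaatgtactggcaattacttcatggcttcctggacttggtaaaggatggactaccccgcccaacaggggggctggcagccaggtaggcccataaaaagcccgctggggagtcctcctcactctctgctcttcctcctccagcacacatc
Duoxa2, chr2:122298650-122298899, plus strand: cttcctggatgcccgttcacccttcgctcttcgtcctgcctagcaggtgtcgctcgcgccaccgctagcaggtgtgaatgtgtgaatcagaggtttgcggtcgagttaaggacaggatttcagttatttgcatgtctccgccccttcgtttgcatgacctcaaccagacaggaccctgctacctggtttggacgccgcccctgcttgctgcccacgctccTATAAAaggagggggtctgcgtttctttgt

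The C/EBP motif, read by a family of acute phase transcription factors, stood in 4 of the 9 upstream sequences and in 9.56% of the 32851 sequences of the same length. The 3 serum amyloid genes and Lcn2 held it, in Saa1 from 182 to 175 bases before the start and in Saa2 from 183 to 176. A match to the NF-kB motif was found in Nox1, 91 to 82 bases before its start, and in 7.25% of all sequences. Neither the STAT letters TTCNNNGAA (7.02% of all sequences) nor the antioxidant response element TGACNNNGC (10.2%) occurred in these 9 windows, searched on both strands. The TATA box, searched on the gene's strand alone, stood 30 to 25 bases before the start of Duoxa2 and in 7.59% of all sequences. Duox2 and Duoxa2 lie head to head on chromosome 2: Duox2 occupies 122280437 to 122298165 on the minus strand, and Duoxa2 occupies 122298900 to 122302885 on the plus strand.

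**Figure D1:**
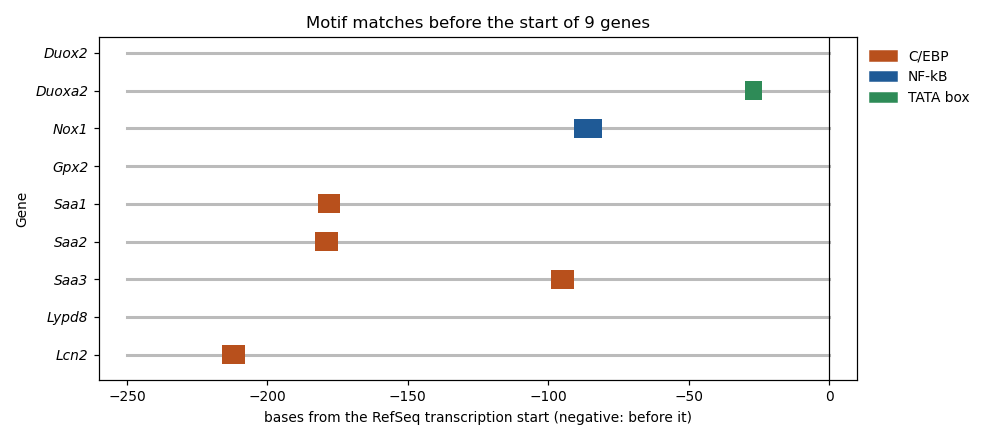
Positions of motif matches in the 250 bases before the RefSeq start of 9 genes, on an axis of bases from the start with 1 line for each gene. The C/EBP matches of Saa1 and Saa2 begin 182 and 183 bases before the start, and those of Saa3 and Lcn2 begin 99 and 216 bases before it.

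Of the 10 genes, 8 had enough counts to be tested and 2, Saa2 and Saa3, did not. A gene that passed the test had an adjusted p below 0.05 (quasi-likelihood test of edgeR, with Benjamini-Hochberg adjustment over 13429 genes), and a called gene also had an absolute log2 fold change above 2. Levels are CPM scaled by TMM factors unless TPM, which also divide by exon length, are named. Errors of log2 fold changes are standard errors (SE), and each group has n = 4. The p-values measure the spread between mice within groups, and the main fit did not use that both regions came from the same mice.

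The comparison of ages asked how expression changed from suckling to after weaning. All 8 tested genes rose with age in both regions, and the P6 and P36 libraries of a region did not overlap for any of them. Duoxa2, Nox1 and Lcn2 were too rare at P6 to be tested in a fit of the P6 libraries alone. They entered the test through P36 libraries, so a fall of these genes could hardly have been seen. Saa1 and Nos2 had 9 and 17 counts over P6 jejunum, so a fall in jejunum could hardly have been seen for them either. Of all tested genes, 24.7% rose in jejunum and 25.5% in ileum. In jejunum 7 of the 8 were called, all upwards, where 16.4% of all genes were called and 7.86% were called upwards. In ileum the same 7 genes were called upwards, where 16.4% of all genes were called and 6.40% upwards. Groups that did not overlap with P36 higher were found for 30.9% of all genes in jejunum and 20.8% in ileum. The median log2 fold change of the 8 genes was 5.54 in jejunum and 6.21 in ileum, and over all genes it was -0.01 and -0.03. Without replicate 2 of P6 ileum the same 7 genes were called in ileum. The ileal log2 fold changes were then 6.37 for Duox2, 6.66 for Duoxa2, 4.79 for Nox1, 6.78 for Nos2, 6.19 for Gpx2, 6.12 for Saa1, 0.89 for Lypd8 and 3.83 for Lcn2.

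**Figure D2:**
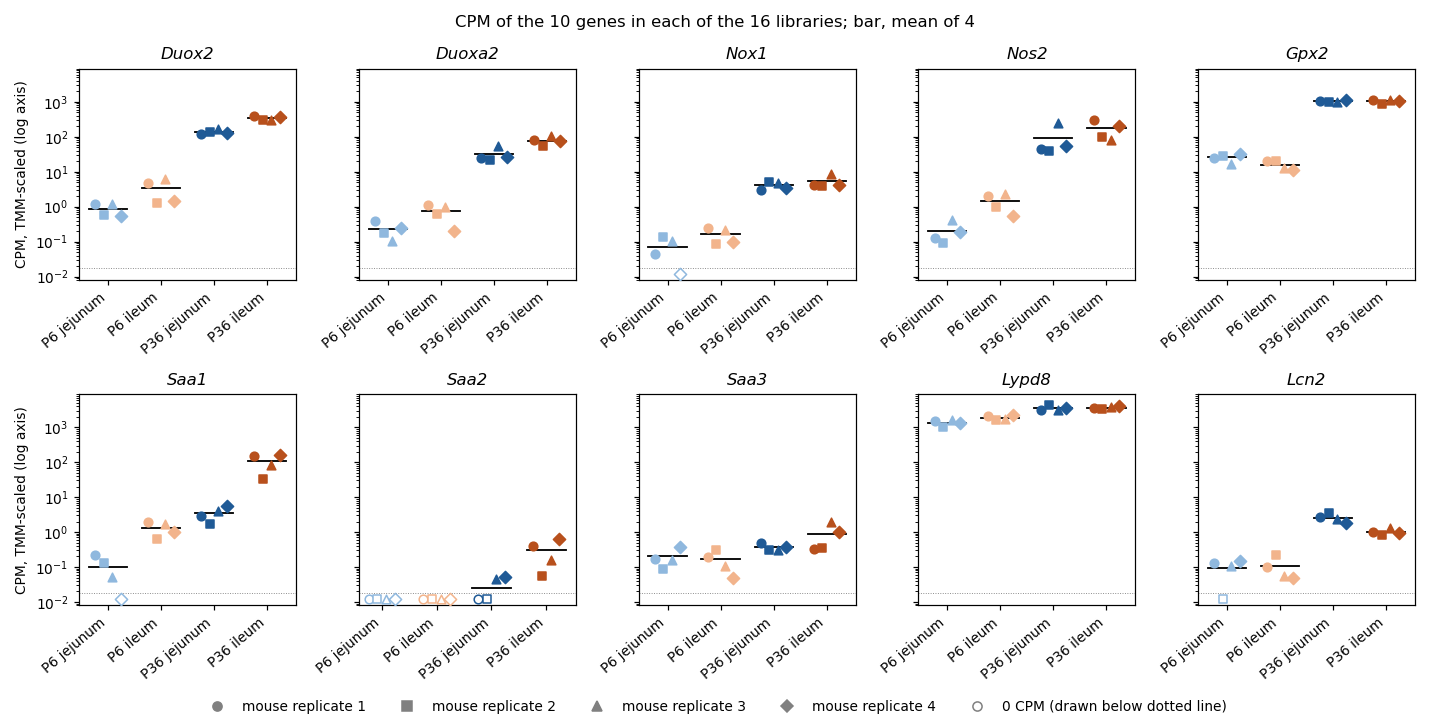
CPM (log axis) of the 10 genes in each of the 16 libraries, with 1 symbol for each mouse replicate, a bar at the mean of 4 libraries and open symbols for 0 CPM. P36 libraries lie above P6 libraries for 8 genes, and Saa1 spans from 0 CPM in P6 jejunum to 164 CPM in P36 ileum.

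Duox2 was at 1.22, 0.58, 1.16 and 0.527 CPM in replicates 1 to 4 of P6 jejunum and at 118, 142, 170 and 126 CPM in P36 jejunum. In ileum it was at 4.79, 1.29, 6.29 and 1.47 CPM at P6 and at 400, 310, 305 and 372 CPM at P36. Every P36 library was far above every P6 library, and at P6 replicates 1 and 3, which are 1 of the 2 sets of mice, were the high ones in both regions. In P6 ileum 5 of the 8 tested genes (Duox2, Duoxa2, Nox1, Nos2 and Saa1) had both libraries of this set above both of the other set, as did 17.3% of all tested genes; in P6 jejunum Duox2 and Lypd8 did, as did 25.4%. The log2 fold change was 7.31 ± 0.50 in jejunum (adjusted p = 6.59e-09) and 6.66 ± 0.47 in ileum (adjusted p = 1.05e-08), a rise of 159-fold and 101-fold. Of the 50-base stretches of the Duox2 transcript, 6.84% also occur in another gene, mostly its paralogue Duox1, and reads that fit several places were not counted.

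Duoxa2 was at 0.393, 0.178, 0.105 and 0.239 CPM in P6 jejunum and at 25.1, 21.6, 53.5 and 26.7 CPM in P36 jejunum. In ileum it was at 1.14, 0.603, 0.976 and 0.196 CPM at P6 and at 78.6, 53.1, 104 and 76.3 CPM at P36. Like its oxidase, Duoxa2 rose by 7.05 ± 0.50 on the log2 scale in jejunum (adjusted p = 9.43e-09) and by 6.74 ± 0.46 in ileum (adjusted p = 6.76e-09). Per transcript length, the TPM of Duoxa2 was 0.639 ± 0.194 (SD) of the TPM of Duox2 in P36 jejunum and 0.655 ± 0.220 in P36 ileum. At P6 this ratio was 0.840 ± 0.431 in jejunum and 0.710 ± 0.436 in ileum, with ranges that overlap those at P36.

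Nox1, the superoxide-producing oxidase best known from the colon, was rare throughout. It had 6 counts in all in the 4 P6 jejunum libraries and 13 in P6 ileum, against 335 and 416 at P36. Its level was 2.94, 5.16, 4.67 and 3.41 CPM in P36 jejunum and 4.20, 4.03, 8.82 and 4.19 CPM in P36 ileum, where replicate 3 stood above the others. The log2 fold change with age was 5.73 ± 0.54 in jejunum (adjusted p = 2.36e-07) and 5.01 ± 0.49 in ileum (adjusted p = 3.92e-07).

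Nos2 had the largest log2 fold change of the 8 genes in jejunum. It was at 0.131, 0.0892, 0.420 and 0.192 CPM in P6 jejunum and at 44.2, 38.5, 243 and 56.4 CPM in P36 jejunum. In ileum it was at 1.97, 0.948, 2.28 and 0.539 CPM at P6 and at 313, 96.9, 80.0 and 211 CPM at P36. Replicate 3 of P36 jejunum stood far above the other 3 libraries of its group, and the same mouse had the lowest ileal level at P36. The log2 fold change was 8.85 ± 0.89 in jejunum (adjusted p = 5.51e-07) and 6.94 ± 0.76 in ileum (adjusted p = 1.41e-06). Without replicate 3 of P36 jejunum the jejunal value was 7.88. The ileal value lay within its SE of those of Duoxa2 and Duox2, and it was 6.51 without replicate 1 of P36 ileum.

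Gpx2, the glutathione peroxidase of the gut epithelium, which reduces hydrogen peroxide and lipid peroxides, varied little between mice at P36. It was at 25.1, 29.1, 16.8 and 31.6 CPM in P6 jejunum and at 19.7, 20.5, 12.8 and 11.3 CPM in P6 ileum. At P36 it lay between 977 and 1134 CPM in jejunum and between 893 and 1167 CPM in ileum, so that the highest library of a region was 1.16 and 1.31 times the lowest. It rose 41.1-fold in jejunum and 66.5-fold in ileum (SE 0.26 on the log2 scale in each region). Of the 50-base stretches of its transcript, 18.9% also occur in another gene, mostly the pseudogene Gpx2-ps1.

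Saa1, a serum amyloid, had the largest regional difference of the 8 tested genes at P36. It had 5, 3, 1 and 0 counts in P6 jejunum and 39, 15, 31 and 20 counts in P6 ileum. At P36 its level was 2.94, 1.72, 3.91 and 5.70 CPM in jejunum and 146, 32.7, 85.6 and 164 CPM in ileum. The P36 ileum thus lay above all other groups in each of its libraries, with replicate 2 lowest and a 5.00-fold range within the group. Saa1 rose with age by 5.00 ± 0.73 on the log2 scale in jejunum (adjusted p = 2.97e-05) and by 6.36 ± 0.58 in ileum (adjusted p = 1.77e-07). Without replicate 1 of P6 jejunum, which held 5 of its group's 9 counts, the jejunal value was 5.66 (adjusted p = 0.000101).

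Saa2 had 0 counts in all 8 libraries at P6, which allows up to 0.0352 CPM in jejunum and 0.0365 CPM in ileum (3 counts over the group, counting error only). At P36 it had 0, 0, 1 and 1 counts in jejunum and 7, 1, 4 and 8 counts in ileum. The sum of 20 ileal counts was at least 7.53-fold higher than the limit for P6 ileum, and it was 11.1 times the jejunal level (exact 95% interval 2.69 to 97.8, for counting error only). Over the same 4 libraries of P36 ileum Saa1 had 7382 counts, 369 times as many as Saa2, although the upstream sequences printed above differ in few columns. The transcripts of Saa1 and Saa2 were 87.3% identical. Of their 50-base stretches, 14.8% in Saa1 and 9.12% in Saa2 also occur in another gene. Reads that fit several places were not counted, and how many reads of Saa1 and Saa2 this left out was not measured.

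Saa3, the serum amyloid made mainly outside the liver, was rare in every group. It had 4, 2, 3 and 8 counts in P6 jejunum, 4, 7, 2 and 1 in P6 ileum and 8, 7, 7 and 7 in P36 jejunum. The P36 ileum had 6, 6, 47 and 13 counts, so replicate 3 alone held most of its 72 counts. The TPM of Saa3 was 0.0118 ± 0.00995 (SD) of that of Saa1 in P36 ileum and 0.139 ± 0.0649 in P36 jejunum.

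Lypd8 had the highest mean TPM of the members in every group and, of the 8 tested, the smallest log2 fold change with age in each region. It was at 1468, 1017, 1599 and 1319 CPM in P6 jejunum and at 3031, 4411, 3130 and 3469 CPM in P36 jejunum. In ileum it was at 2052, 1588, 1707 and 2176 CPM at P6 and at 3454, 3422, 3852 and 3969.9 CPM at P36. The ages did not overlap in either region, yet the change stayed under the fold minimum, at 1.38 ± 0.19 on the log2 scale in jejunum (adjusted p = 1.54e-05) and 0.97 ± 0.19 in ileum (adjusted p = 0.000398). Lypd8 is best known from the colon, and 4 genes of colon epithelium summed to 14.1 to 48.9 CPM at P36, where Car1 was at 0 in jejunum and Hoxb13 in ileum.

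Lcn2 was rare, with 8 counts over P6 jejunum and 9 over P6 ileum. At P36 it was at 2.71, 3.57, 2.38 and 1.76 CPM in jejunum and at 0.995, 0.851, 1.35 and 0.95 CPM in ileum. Its log2 fold change with age was 4.70 ± 0.54 in jejunum (adjusted p = 2.35e-06) and 3.20 ± 0.54 in ileum (adjusted p = 0.000109). Without replicate 2 of P6 ileum, which had the highest Lcn2 level of its group, the ileal value was 3.83 (adjusted p = 7.94e-05). Lcn2 is also a granule protein of neutrophils, of which 7 of 8 listed genes were measured. They summed to 0 to 0.0525 CPM in P6 jejunum and 0.118 to 1.30 CPM in P36 jejunum, and to 0.197 to 0.687 CPM and 0.221 to 0.567 CPM in ileum. S100a8 and S100a9, abundant in mature neutrophils, reached at most 0.488 and 0.49 CPM in any library, and Mpo and Elane, made in their precursors, were at 0 in all 16. The part of these cells in the Lcn2 values was not tested.

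**Figure D3:**
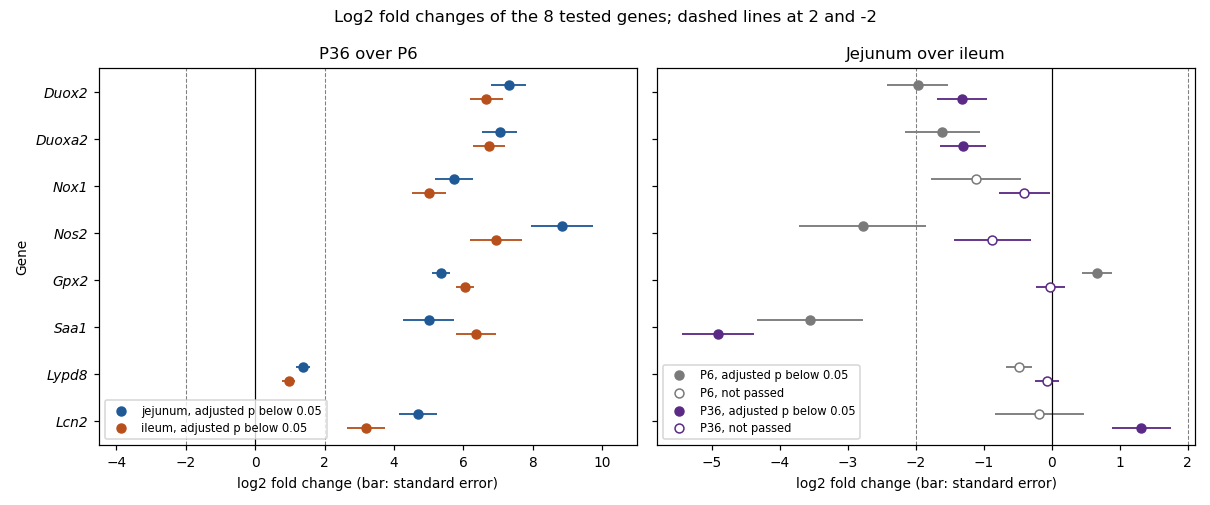
Log2 fold changes with SE of the 8 tested genes, P36 over P6 in each region and jejunum over ileum at each age, with filled points for adjusted p below 0.05 and dashed lines at 2 and -2. With age, 7 of 8 genes lie beyond 2 in both regions, while between regions Saa1 reaches -3.55 at P6 and -4.91 at P36.

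Markers of other cells moved with age as well, those of the secretory cells of the epithelium among them. Paneth cell genes, 5 of 5 measured and none at 0, summed to 18.8 to 38.1 CPM in P6 jejunum and 3375 to 6695 CPM in P36 jejunum, and to 38.3 to 79.5 CPM and 4196 to 11741 CPM in ileum. Goblet cell genes, 6 of 6, summed to 1643 to 2235 CPM and 10712 to 11948 CPM in jejunum and to 1728 to 3942 CPM and 11525 to 22036 CPM in ileum. The 9 macrophage genes summed to 419 to 504 CPM in P6 jejunum and 162 to 358 CPM in P6 ileum, of which Csf1r alone gave 415 to 498 CPM and 152 to 333 CPM, and to 21.8 to 57.2 CPM at P36. Itgam, another of the 9, went the other way, from 0.916 to 1.84 CPM at P6 to 18.3 to 21.9 CPM at P36 in jejunum and from 2.17 to 4.86 CPM to 28.8 to 51.5 CPM in ileum, and Cd163 was at 0 in P6 jejunum and P36 ileum. The 6 genes of B cells and plasma cells summed to 0.262 to 0.335 CPM in P6 jejunum and 5.74 to 74.7 CPM in P36 jejunum, and to 1.36 to 3.29 CPM and 7.08 to 57.7 CPM in ileum. Genes of T cells and innate lymphoid cells, 8 of 9 measured, summed to 289 to 312 CPM and 58.6 to 74.0 CPM in jejunum and to 204 to 252 CPM and 25.7 to 49.2 CPM in ileum, and Il17a and Il22 were at 0 in P6 jejunum. The part of these cells in the rises of the defence genes was not tested.

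The comparison of regions asked which genes differed between jejunum and ileum at each age. At P6, 4 genes were lower in jejunum than in ileum, namely Saa1, Nos2, Duox2 and Duoxa2, and Gpx2 was higher. These are 5 of 8 genes that passed, where 25.9% of all genes did (14.8% lower and 11.1% higher in jejunum). Saa1 and Nos2, 2 of 8, were called, where 6.50% of all genes were and 4.30% were called lower. At P36, Saa1, Duox2 and Duoxa2 were lower in jejunum and Lcn2 was higher, so that 4 of 8 passed, where 16.1% of all genes did (7.80% lower and 8.30% higher in jejunum). Saa1 was the only one of the 8 called, where 3.60% of all genes were and 1.55% were called lower. The regions did not overlap for 3 of 8 genes at P6, where 30.1% of all genes did not, and for 3 of 8 at P36, where 26.9% did not. The median log2 fold change of the 8 genes was -1.36 at P6 and -0.64 at P36, and over all genes it was -0.05 and -0.04.

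Saa1 was higher in ileum of every mouse. The jejunum over ileum log2 fold change was -3.55 ± 0.78 at P6 (adjusted p = 0.00331), which rests on 9 jejunal counts, and -4.91 ± 0.53 at P36 (adjusted p = 1.32e-05). At P36 the ileal level of a mouse was 49.6, 19.0, 21.9 and 28.7 times its jejunal level. The groups did not overlap at either age, and without replicate 2 of P6 ileum the P6 value was -3.79 (adjusted p = 0.00296). Without replicate 1 of P6 jejunum it was -4.21 (adjusted p = 0.00579).

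Duox2 was also higher in ileum of all 8 mice, by 2.23 to 5.45 times at P6 and by 1.80 to 3.38 times at P36. The log2 fold change was -1.97 ± 0.45 at P6 (adjusted p = 0.00415) and -1.32 ± 0.37 at P36 (adjusted p = 0.0219), and the groups overlapped at neither age. The P6 value passed the fold minimum without replicates 2 or 4 of P6 ileum (-2.25 and -2.22), without replicates 1 or 3 of P6 jejunum (-2.19 and -2.12) and under scaling by library totals (-2.26). Without replicates 1, 2 or 4 of P36 jejunum, or replicate 4 of P36 ileum, the P36 difference had adjusted p-values of 0.0534 to 0.0742.

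Duoxa2 was higher in ileum of 3 of 4 mice at P6 and 4 of 4 at P36. The log2 fold change was -1.61 ± 0.55 at P6 (adjusted p = 0.0436), from 20 counts in jejunum and 59 in ileum, and -1.30 ± 0.34 at P36 (adjusted p = 0.0169). The P6 difference no longer passed with no filter on low counts (adjusted p = 0.0531), or without any one of replicates 1 to 3 of P6 ileum, 2 to 4 of P6 jejunum, or 1 and 4 of either P36 region (adjusted p = 0.0503 to 0.118, and 0.0543 without replicate 2 of P6 ileum). The P36 difference no longer passed without replicates 1, 2 or 4 of P36 jejunum or replicate 3 of P36 ileum (adjusted p = 0.0561 to 0.0642).

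Nos2 was 2.82 to 15.1 times higher in ileum of the 4 mice at P6, with a log2 fold change of -2.78 ± 0.93 (adjusted p = 0.0380) and no overlap between the groups. With the mouse as a block the adjusted p was 0.0561, and without replicates 1, 3 or 4 of P6 ileum, or 1, 2 or 4 of P6 jejunum, it was 0.0514 to 0.0962. Without replicate 2 of P6 ileum the log2 fold change was -2.94 (adjusted p = 0.0419). At P36 Nos2 was higher in ileum of 3 mice, by 7.08, 2.51 and 3.74 times, and lower in ileum of replicate 3, at 0.330 times its jejunal level. The log2 fold change at P36 was -0.87 ± 0.57 (adjusted p = 0.349). Without replicate 3 of P36 jejunum it was -1.89 (adjusted p = 0.0165).

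**Figure D4:**
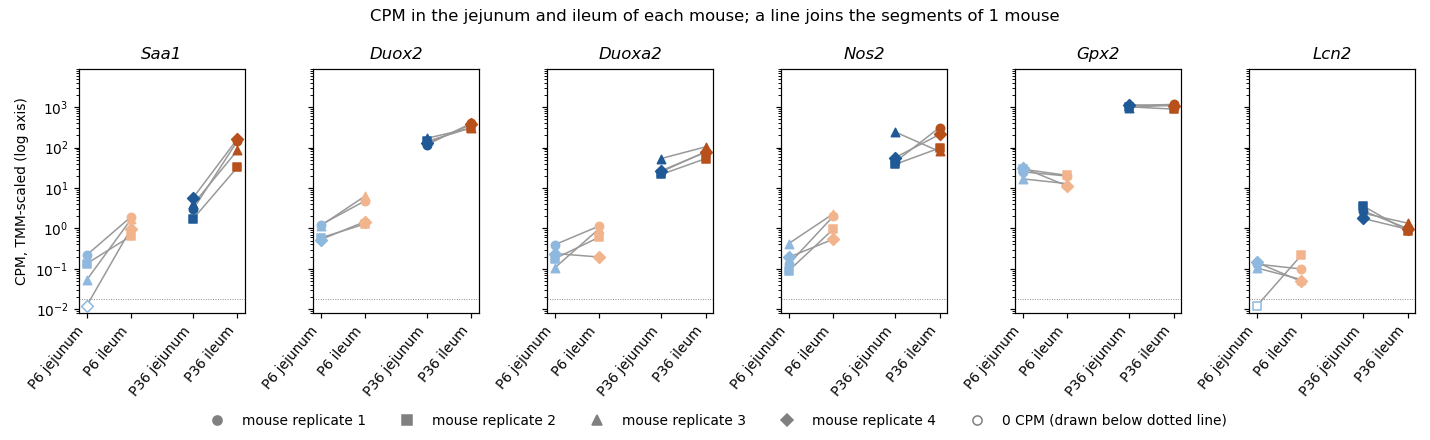
CPM (log axis) of 6 genes in jejunum and ileum of each mouse at P6 and P36, where a line joins the segments of 1 mouse and open symbols mark 0 CPM. All 8 lines of Saa1 and of Duox2 rise towards ileum, and the Nos2 line of 1 P36 mouse falls from 243 to 80.0 CPM.

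Gpx2 had the opposite direction at P6, with the higher level in jejunum of 4 of 4 mice and a log2 fold change of 0.67 ± 0.22 (adjusted p = 0.0311). Scaling by library totals gave 0.38 (adjusted p = 0.157), and the fit of the 8 P6 libraries alone gave an adjusted p of 0.126. The difference no longer passed without replicates 1, 2 or 4 of P6 jejunum or 3 or 4 of P6 ileum (adjusted p = 0.0553 to 0.102), and it was 0.81 without replicate 2 of P6 ileum (adjusted p = 0.0184). At P36 the Gpx2 difference was -0.02 ± 0.21 on the log2 scale (adjusted p = 0.970), with means of 1056 ± 71.6 CPM (SD) in jejunum and 1069.7 ± 124 CPM in ileum.

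Lcn2 was the only one of the 8 that passed with a higher level in jejunum at P36, in 4 of 4 mice, with a log2 fold change of 1.32 ± 0.43 (adjusted p = 0.0465). It no longer passed with the mouse as a block (adjusted p = 0.0885), with sex as a covariate (0.0596), under scaling by library totals (0.0738), with no filter on low counts (0.0846), and without any one P36 library or replicates 1, 3 or 4 of P6 jejunum or 1 of P6 ileum (0.0555 to 0.147). At P6 the difference was -0.18 ± 0.65 (adjusted p = 0.865), and it turned to 0.44 without replicate 2 of P6 ileum and to 0.23 without replicate 2 of P6 jejunum. Nox1 did not pass at P6 (-1.11 ± 0.66, adjusted p = 0.238, and -1.33 without replicate 2 of P6 ileum) or at P36 (-0.40 ± 0.37, adjusted p = 0.541).

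Lypd8 differed by -0.48 ± 0.19 on the log2 scale between the regions at P6 (adjusted p = 0.0698) and by -0.07 ± 0.18 at P36 (adjusted p = 0.865). At P6 its level was higher in ileum of 4 of 4 mice, by 1.07 to 1.65 times. DESeq2 (-0.47, adjusted p = 0.0228) and scaling by library totals (-0.76, adjusted p = 0.00621) put the P6 difference past the threshold, and without replicate 2 of P6 ileum edgeR gave -0.55 (adjusted p = 0.0571).

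The interaction asked whether the regional difference changed with age, as the P6 log2 fold change minus the P36 one. None of the 8 genes passed in edgeR, where 8.69% of all genes did, and none passed in DESeq2. At an unadjusted p below 0.05 edgeR gave 1 gene, Gpx2, with 0.69 ± 0.30 (adjusted p = 0.183). The widest intervals were those of Nos2 (-1.91 ± 1.11, adjusted p = 0.324) and Saa1 (1.36 ± 1.18, adjusted p = 0.525). The Nos2 value was -0.89 without replicate 3 of P36 jejunum, and the Saa1 value was 0.70 without replicate 1 of P6 jejunum. Without replicate 2 of P6 ileum the values lay between -2.07 for Nos2 and 1.12 for Saa1, and that of Lcn2 went from -1.50 to -0.88.

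Levels between genes can be compared only per transcript length. In P36 ileum the mean TPM was 6415 for Lypd8, 1930 for Gpx2, 331 for Saa1, 147 for Duox2, 93.9 for Duoxa2 and 83.1 for Nos2, followed by Nox1 at 3.99, Saa3 at 3.24, Lcn2 at 2.34 and Saa2 at 0.952. The ranges of neighbours in this order overlapped for Saa1 and Duox2, for Duoxa2 and Nos2, and among Nox1, Saa3 and Lcn2. In P36 jejunum Lypd8 and Gpx2 again led, at 5888 and 1831 TPM, while Saa1 at 10.8 TPM stood below Duox2 at 56.7, Nos2 at 44.9 and Duoxa2 at 37.1 TPM. Nos2 stood above Duoxa2 through replicate 3 alone, at 116 against 63.8 TPM, and lay at 18.5 to 25.6 TPM in the other 3 libraries, in each of which Duoxa2 was higher. Lcn2 at 5.68, Nox1 at 2.95, Saa3 at 1.27 and Saa2 at 0.0745 TPM followed. Here the ranges overlapped among Duox2, Nos2 and Duoxa2, between Saa1 and Lcn2 and between Lcn2 and Nox1. At P6 Lypd8 stood at 2442 TPM in jejunum and 4550 TPM in ileum, Gpx2 at 47.4 and 39.8 TPM, and every other member below 10 TPM.

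Among the partners of the oxidases, Noxo1 and Noxa1, which organize and activate Nox1, rose in both regions. Noxa1 rose by 3.22 on the log2 scale in jejunum and 2.92 in ileum, and Noxo1 by 1.21 and 1.85. Duox1, the paralogue of Duox2, rose by 3.53 and 4.30 but remained at 0.881 and 1.08 CPM at P36. Nox4, which makes hydrogen peroxide without these partners, fell by 9.19 in jejunum and fell by 11.81 in ileum, from 243 ± 65.6 CPM (SD) and 122 ± 55.1 CPM at P6 to 0.439 ± 0.442 and 0.0336 ± 0.0400 CPM. Of the 13 oxidase genes listed besides the members, 11 were tested, and 7 rose and 1 fell in jejunum, whereas 6 rose and 1 fell in ileum.

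Of 16 genes that remove peroxide and superoxide, 15 were tested. In jejunum 7 rose and 4 fell with age, and in ileum 8 rose and 4 fell. Gpx3, the secreted glutathione peroxidase, fell by 10.30 on the log2 scale in jejunum and fell by 11.42 in ileum, from 8255 ± 571 CPM and 9114 ± 1211 CPM at P6 to 6.53 ± 2.51 and 3.37 ± 1.61 CPM, while Gpx2 rose. Catalase (Cat) fell by 1.6 and 2.71, and glutathione reductase (Gsr), which recycles the cofactor of the peroxidases, rose by 2.95 and 2.09. Of 10 target genes of the antioxidant factor Nrf2, all tested, 6 rose and 3 fell in jejunum and 4 rose and 4 fell in ileum. Hmox1 was among those that fell, by 6.11 and 5.66.

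**Figure D5:**
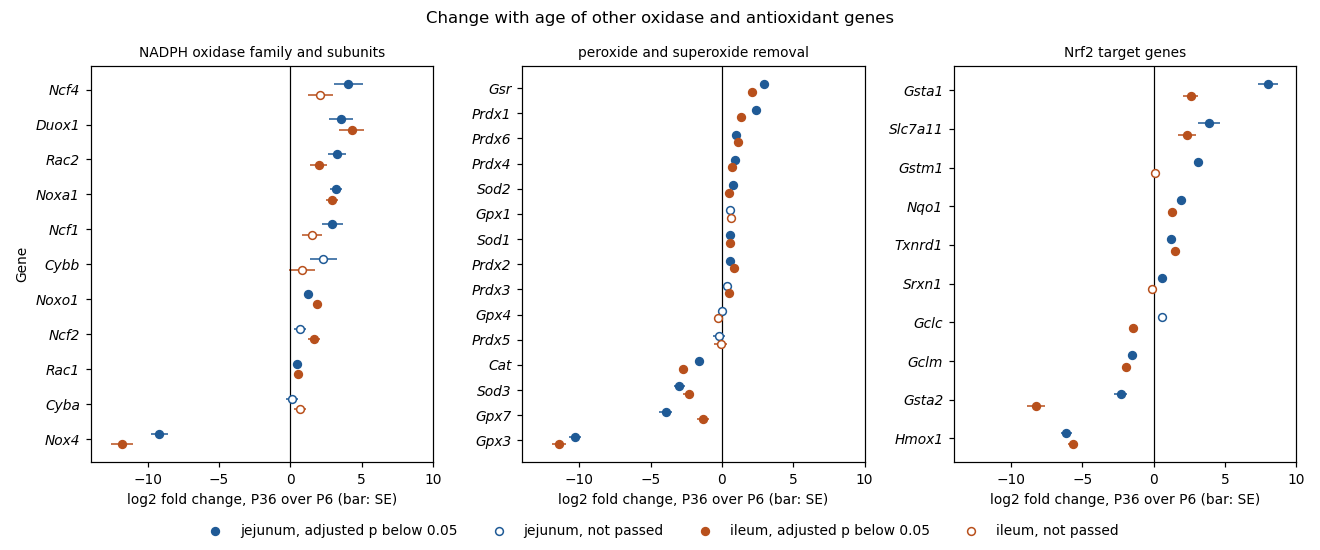
Log2 fold change from P6 to P36, with SE, of the tested genes of 3 lists in jejunum and ileum, with filled points for adjusted p below 0.05. Nox4 and Gpx3 lie at the far left of their panels, near -9.19 and -10.30 in jejunum, and most other oxidase genes lie right of 0.

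Around Nos2, 5 of 9 genes of nitric oxide and arginine metabolism were tested, and 2 rose and 2 fell with age in each region. Arg2, which uses the same substrate as Nos2, rose by 11.24 on the log2 scale in jejunum and 7.97 in ileum and was higher in P36 jejunum (446 CPM) than in P36 ileum (53.9 CPM), with a log2 fold change of 3.05 (adjusted p = 0.000371). Ddah1, which clears inhibitors of nitric oxide synthases, was lower in jejunum at both ages, with log2 fold changes of -4.13 at P6 and -3.45 at P36. Gch1, which makes a cofactor of the synthases, fell with age by 1.39 and 1.75.

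Of 11 acute phase genes beside the serum amyloids, 3 were tested, and Lrg1 and Il1rn rose in both regions. Lrg1 had a mean of 2.87 CPM in P36 jejunum and 8.94 CPM in P36 ileum, with a log2 fold change between them of -1.64 (adjusted p = 0.0121). Of the family of Lypd8, with 11 of 12 genes measured and 6 tested, 5 rose in jejunum, and 3 rose and 1 fell in ileum. Ly6a rose by 5.12 and 5.44 and Ly6e by 2.5 and 3.21. Of 12 genes for metal withholding and killing of bacteria, 4 were tested: Pglyrp1, a peptidoglycan recognition protein, rose by 2.02 in jejunum and 2.79 in ileum, Slpi rose by 4.52 and 2.34, and lactoferrin (Ltf) fell by 2.71 in ileum and had 0.35 in jejunum (adjusted p = 0.564).

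Of 21 genes for cytokine receptors and for NF-kB or STAT3 signalling, 20 were tested, and 9 rose and 3 fell in jejunum, while 10 rose and 2 fell in ileum. Il17rc, a subunit of the interleukin 17 receptor, rose by 3.70 on the log2 scale and 4.79, and the C/EBP factor Cebpd by 5.66 and 3.61. Cebpb, another C/EBP factor, went the other way, with -0.87 in jejunum (adjusted p = 0.00512) and -0.51 in ileum (adjusted p = 0.0777). The feedback inhibitors Nfkbia and Socs3 rose by 2.24 and 2.35 in jejunum and by 1.64 and 1.86 in ileum, and Nfkbiz, a nuclear regulator of NF-kB target genes, rose by 1.80 and 1.32. Il22ra1, the epithelial receptor of interleukin 22, fell by 0.93 and 0.68, and Stat3 did not pass in either region.

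The genes whose log2 CPM followed each member most closely over the 16 libraries were found by Pearson's r, a description in which the gap between the ages weighs most. Duox2 was closest to Ocm (r = 0.989) and Reg3g (0.988), the latter a bactericidal lectin at 12173 CPM in P36 jejunum, and Nos2 was also closest to Ocm and to Adgrb1 (0.983 each). Duoxa2 was closest to Prss32 (0.990), Nox1 to the Paneth cell lysozyme Lyz1 (0.989), Gpx2 to Lgals2 (0.991) and Lypd8 to Rapgef5 (0.976). Saa1 was closest to Epb4.1l1 (0.975) and Suox (0.972), of which Suox had means of 1.64, 7.84, 11.8 and 760 CPM in P6 jejunum, P6 ileum, P36 jejunum and P36 ileum. Lcn2 was closest to Fam101b (0.968). Among the members themselves, r was highest between Duox2 and Duoxa2 (0.989) and lowest between Saa1 and Lcn2 (0.587).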

How the data were processed

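Epithelial RNA of 16 libraries was analysed. The authors made stranded mRNA libraries, used Trimmomatic 0.38 for trimming and STAR (2.5.3 in the submitters' processing notes) for alignment to mm10, and deposited raw counts of read pairs on exons by gene from featureCounts of Subread 1.6.3, without reads that fit several places. Counts were normalized by TMM after filterByExpr, which left 13429 genes, and tested with edgeR 4.0.16 in R 4.3.3 in 1 fit of 4 group means without a block. CPM were scaled by TMM factors, TPM used exon lengths and log2 CPM a prior count of 2. The SE is the size of the log2 fold change over the square root of the F statistic. On simulated counts of 13429 genes, 197 to 200 of 200 genes with a simulated log2 change of 3 were recovered, with 0 to 3 false calls. The changed genes were drawn only from genes with many counts, so this recovery does not cover members with few counts.

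Jejunum and ileum of a mouse share its number, and their deviations correlated at r = 0.157 to 0.391 in all 8 mice. No replicates were copies (chi-square per gene at least 13.2). Alternatives were DESeq2 1.42.0, other scalings and filters, the mouse as a block, a robust prior, sex as a covariate, fits of only the groups compared and each library left out. The members and lists were chosen with earlier results of these data known. Named genes are the members, up to 5 genes of a list with the smallest adjusted p in a comparison, the closest genes by correlation, and cell type markers. Il22ra1, Stat3 and Cebpb were chosen after their values were seen.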

Additional observations from a re-analysis of the deposited data

Results flagged for a closer look

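In 3 of 38 sets of 4 libraries, the level of a member in 1 library stood apart from the others beyond the 95% limit of Dixon's test, which chance does in about 1 in 20 sets. Duoxa2 was at 53.5 CPM in replicate 3 of the P36 jejunum against 21.6 to 26.7 CPM in the others. Nos2 was at 243 CPM in the same library against 38.5 to 56.4 CPM, and Duox2 was also highest there, at 170 CPM. The same library had the highest summed level of B and plasma cell genes in its group (74.7 CPM against 5.74 to 39.6 CPM), of neutrophil genes (1.30 CPM against 0.118 to 0.639 CPM) and of macrophage genes (35.4 CPM against 21.8 to 28.0 CPM). Nox1 was at 8.82 CPM in replicate 3 of the P36 ileum, from the same mouse, against 4.03 to 4.20 CPM. That ileal library also held 47 of the 72 Saa3 counts of its group and the highest summed level of Paneth cell genes (11741 CPM against 4196 to 6329 CPM); the part of these cells in either library was not tested.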

How the results depend on the processing

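All values with age kept their direction and their side of the threshold under all alternatives run (191 of 191 in each region), with 7 genes called in every other fit that tested the same 8 genes with the fold minimum; with no filter on low counts 9 were called in ileum, since Saa2 and Saa3 were then tested too. Between regions 167 of 196 values kept both at P6 and 169 of 199 at P36. With the mouse as a replicate block, 1 gene was called at P6 in place of 2, and besides Nos2 at P6 and Lcn2 at P36 the block moved no value across the threshold. With no minimum fold change, 5 genes were called between the regions at P6 and 4 at P36. Leaving out each library in turn gave 1 to 3 called genes between the regions at P6, 1 at P36, 7 with age in each region and 0 for the interaction. Directions turned for 4 differences that had not passed: Lcn2 at P6 ranged from -0.43 to 0.44 over these fits, Gpx2 at P36 from -0.08 to 0.05, Lypd8 at P36 from -0.20 to 0.02 and the Duoxa2 interaction from -0.69 to 0.04, and the fit of only the P36 groups gave 0.00 for Gpx2. The cause was not tested.

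Scaling by library totals moved the median gene by -0.29 (log2) between the regions at P6, by -0.14 at P36 and by -0.15 in the interaction, and the called genes that were higher in jejunum at P6 made up 22.7% in place of 33.9%, and the positive interaction calls 24.2% in place of 42.3%. The fit of only the P6 groups did not test Duoxa2, Nox1 and Lcn2, and a mean CPM of at least 1 removed Lcn2. Depth limits the P6 values of Saa1, Saa2, Saa3, Nos2, Duoxa2, Nox1 and Lcn2, which had at most 20 counts over P6 jejunum, and in P6 ileum those of Saa2, Saa3, Nox1 and Lcn2, which also had at most 20.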
